A study of Homo sapiens with 13 samples.

Results

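In MV4-11 cells, 544 genomic regions were called as bound by DNMT1 lacking its RFTS domain in both replicate libraries under DMSO, and by full-length DNMT1 in neither of 2 lines under DMSO. These regions were chosen by the presence or absence of deposited peaks. The peaks of 10 GFP-DNMT1 libraries on chromosomes 1 to 22 and X were pooled, peaks overlapping a peak of the parental cells by 1 bp were dropped, and overlapping peaks were merged into 48763 regions. A region was kept when it held a peak of both RFTSdel DMSO libraries and none of the NTC DMSO or WT DMSO library, which 1.12% of all regions did. The RFTSdel DMSO libraries both held a peak in 10665 regions, of which 8061 were also called in both full-length lines ("shared regions") and 2060 in 1 of them.

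The word private holds only against those 2 libraries. The UHRF1 knockout line carries full-length DNMT1 too, and its DMSO library had a peak in 383 of the 544 regions (70.4%), where it had one in 65.9% of all merged regions. It was the longest list, with 32523 peaks. With lists of equal length it had a peak in 31.7% of the regions then chosen, and at a −log10 q of at least 4 in 31.5%. Those settings also change the calls at other regions, and the share over all regions was not computed for them. Without a peak in any of the 6 libraries of full-length enzyme there were 153 regions (28.1%). The rule itself fixes absence in NTC DMSO and WT DMSO, so it sets part of this share. When absence was asked only of the WT library, which carries the same batch label as the RFTSdel libraries, 2099 regions met the rule in place of 544. Asking for a peak in only 1 RFTSdel DMSO library gave 1677 regions without replicate 1 and 1158 without replicate 2.

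MV4-11 is an established acute myeloid leukaemia line. All 10 libraries came from cells that carried a guide against endogenous DNMT1 (gDNMT1) and overexpressed a GFP-tagged DNMT1, and chromatin was precipitated with an antibody against GFP. The WT line carried GFP-DNMT1 WT with no further guide, the NTC line carried it with a non-targeting guide (gNTC), the UHRF1KO line carried it with a guide against UHRF1, and the RFTSdel line carried the RFTS deletion mutant. Each was grown for 7 days in DMSO or in 100 nM of the DNMT1 inhibitor GSK3685032 (DNMT1i). The parental cells were untreated and had no GFP-DNMT1. RFTSdel had 2 libraries per treatment and every other group had 1. Nothing in the labels ties the 2 to separate cultures, and p-values measure only the spread between libraries. RFTSdel, WT and parental carry batch label 1, and NTC and UHRF1KO carry batch label 2. Whether any line was a clone or a pool is not given in the sources used here. Peak lists measure neither the loss of endogenous DNMT1 or UHRF1 nor any marker of the cell type, so the labels were not checked in that way.

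DNMT1 is the maintenance methyltransferase: it copies CpG methylation onto the new strand after DNA replication. Its RFTS domain (replication foci targeting sequence) folds over the catalytic pocket and holds the enzyme inactive, and it also binds histone H3 that UHRF1 has ubiquitinated at hemimethylated DNA. The domain therefore takes part both in restraining the enzyme and in bringing it to newly replicated chromatin. Promoters rich in CpG are mostly free of methylation in normal cells. In leukaemia, some of them, such as that of the cell-cycle inhibitor gene CDKN2B, are known to gain it.

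Most of the private regions lay at gene starts, so the promoter DNA under them is shown first. The sequences are RefSeq windows of build GRCh38.p14, from 250 bases before to 50 bases after a gene's start, written 5′ to 3′ on the gene's strand. SMDT1, which encodes a small subunit of the mitochondrial calcium uniporter, is the best ranked private region with such a window (both of its start sites are given). The other 4 were picked after their values were seen because they hold the letters CGCATGCG, which private promoters held in a larger share than shared ones. ACOT13 encodes an acyl-CoA thioesterase, SUMF2 a member of the sulfatase-modifying factor family, CDKN2B an inhibitor of cyclin-dependent kinases, and ALG8 a glucosyltransferase of N-glycosylation. Capitals mark the motifs searched, on either strand. The letters searched were CGCATGCG for NRF1, a factor of nuclear genes with mitochondrial roles, and CCAAT for NFY, a factor common at promoters. GGGCGG stood for the GC box bound by the SP family, and CCGGAAGT for the ETS family. AAGATGGCG stood for YY1, TGACGTCA for the cyclic AMP response element (CRE), and CACGTG for the E-box. The TATA box was searched as TATAAA, the ZBTB33 type palindrome as CTCGCGAG, and ZNF143 as ACTACAATT. None of these motifs contains another, and those of NRF1, CRE, E-box and ZBTB33 read the same on both strands.
SMDT1 (chr22:42079450-42079749, plus strand): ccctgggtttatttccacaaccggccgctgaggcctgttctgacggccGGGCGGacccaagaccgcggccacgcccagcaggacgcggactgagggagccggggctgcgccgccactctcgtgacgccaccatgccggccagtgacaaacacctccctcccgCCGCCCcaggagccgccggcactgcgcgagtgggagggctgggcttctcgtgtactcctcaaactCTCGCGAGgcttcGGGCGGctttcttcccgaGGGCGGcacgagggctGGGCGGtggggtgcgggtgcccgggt
SMDT1 (chr22:42079699-42079998, plus strand): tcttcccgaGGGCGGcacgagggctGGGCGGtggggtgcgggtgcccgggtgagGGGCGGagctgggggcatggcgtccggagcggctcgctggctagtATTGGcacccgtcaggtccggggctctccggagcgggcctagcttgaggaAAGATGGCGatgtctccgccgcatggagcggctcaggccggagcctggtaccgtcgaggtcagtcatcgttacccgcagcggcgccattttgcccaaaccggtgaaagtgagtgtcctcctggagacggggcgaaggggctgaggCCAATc
ACOT13 (chr6:24666827-24667126, plus strand): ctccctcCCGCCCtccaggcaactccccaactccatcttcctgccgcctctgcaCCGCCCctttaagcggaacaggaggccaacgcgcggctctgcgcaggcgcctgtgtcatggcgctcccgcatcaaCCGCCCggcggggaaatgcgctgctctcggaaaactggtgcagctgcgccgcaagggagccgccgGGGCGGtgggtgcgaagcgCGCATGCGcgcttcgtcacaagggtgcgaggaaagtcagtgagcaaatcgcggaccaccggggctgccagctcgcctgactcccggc
SUMF2 (chr7:56064036-56064335, plus strand): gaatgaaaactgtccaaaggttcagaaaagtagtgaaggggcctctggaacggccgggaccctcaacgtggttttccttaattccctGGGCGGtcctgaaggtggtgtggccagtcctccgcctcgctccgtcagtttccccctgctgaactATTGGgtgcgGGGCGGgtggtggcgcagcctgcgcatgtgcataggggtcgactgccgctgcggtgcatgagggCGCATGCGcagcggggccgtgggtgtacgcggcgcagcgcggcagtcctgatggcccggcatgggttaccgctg
CDKN2B (chr9:22009256-22009555, minus strand): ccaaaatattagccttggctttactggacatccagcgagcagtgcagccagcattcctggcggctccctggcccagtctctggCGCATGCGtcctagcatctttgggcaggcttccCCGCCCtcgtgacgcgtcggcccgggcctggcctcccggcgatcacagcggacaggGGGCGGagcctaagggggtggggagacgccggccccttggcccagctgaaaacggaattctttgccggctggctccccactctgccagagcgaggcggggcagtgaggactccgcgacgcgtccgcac
ALG8 (chr11:78139577-78139876, minus strand): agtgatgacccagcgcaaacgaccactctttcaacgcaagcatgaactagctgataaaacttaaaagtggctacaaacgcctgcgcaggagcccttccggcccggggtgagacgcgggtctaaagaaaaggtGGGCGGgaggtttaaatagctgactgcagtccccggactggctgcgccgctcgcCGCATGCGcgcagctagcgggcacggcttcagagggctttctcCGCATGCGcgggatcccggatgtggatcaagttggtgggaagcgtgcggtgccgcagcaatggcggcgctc

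These 5 regions had UHRF1KO DMSO peaks as well. A further region chosen for the same letters, at the splicing factor gene U2AF1, ranked above CDKN2B and ALG8 and had none. Its window is not printed because the region covers 203 of its 300 bases, and its reads may be shared with a near-identical gene copy. The U2AF1 region had 4.95 and 3.77 in RFTSdel DMSO and no peak in any further library. At the TDP2/ACOT13 region (chr6:24666450-24667256) the −log10 q was 8.20 and 6.39 in RFTSdel DMSO replicates 1 and 2, 4.62 in UHRF1KO DMSO, and 2.55 and 4.69 in the RFTSdel DNMT1i replicates. At CCT6A/SUMF2 (chr7:56063912-56065022) the DMSO values were 5.20 and 5.94 in RFTSdel and 1.40 in UHRF1KO, and DNMT1i replicate 2 had 3.07. CDKN2B (chr9:22008567-22009598) had 3.66 and 4.07 in RFTSdel DMSO, 2.16 in UHRF1KO DMSO and 3.85 in RFTSdel DNMT1i replicate 2. ALG8 (chr11:78138849-78139884) had 4.03 and 3.52 in RFTSdel DMSO, 5.67 in UHRF1KO DMSO, and no peak after DNMT1i. The −log10 q is the authors' peak strength, with 1 close to the weakest value in each list, and a higher value is a stronger call. It is set side by side here to describe each list, since lists differ in depth and that depth is unknown.

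Apart from a few, the private regions were weak peaks. Ranked by the lower of the 2 RFTSdel DMSO values, their median −log10 q was 2.39 (range 1.02 to 37.5), against 2.94 in regions also called in 1 full-length line and 4.89 in shared regions. By replicate the medians were 2.91 and 3.24, against 5.64 and 5.98 in shared regions, and the median fold enrichment was 4.10 and 4.22, against 5.23 and 5.33. Private regions were also short, with a median of 724 bp (232 to 2776) against 1382 bp. Replicate 2 had the higher −log10 q in 319 of 544 regions, and Spearman's rho between the replicates was 0.49 over the 544 regions, as a description. Because the RFTSdel DMSO values chose the regions, none of these strengths was tested.

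The deposited lists differ in a way that bears on this rule. The RFTSdel DMSO lists held 12240 and 14020 peaks after removal of parental ones, with median −log10 q of 4.36 and 4.31. The NTC DMSO list held 23561 peaks with a median of 1.96 and the WT DMSO list 16706 with a median of 2.18, so the full-length lists were longer and weaker. The part of this difference in the choice of regions was not tested. The last regions inside the rule were SLFN5 (1.09 and 1.53 in RFTSdel DMSO), H4C16 (3.21 and 1.05) and ST8SIA4 (1.02 and 5.38). Just outside it were regions at LINC02739, ATP5MC3 and CDCA7, each kept out by an NTC DMSO peak of −log10 q 1.02. Of the 544, 12 had a peak of a full-length DMSO line within 1 kb, 95 within 5 kb and 180 within 10 kb (33.1%). Counted over all 544 again, 5 overlapped an NTC or WT DMSO peak that had been dropped because the parental cells had one there.

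In the 6 libraries that the rule did not use, the share called was lower in private than in shared regions, with intervals that did not overlap. UHRF1KO DMSO had a peak in 70.4% of private regions (95% Wilson interval 66.4 to 74.1), 90.7% of those called in 1 full-length line and 97.6% of shared regions. RFTSdel DNMT1i replicates 1 and 2 had peaks in 119 (21.9%) and 231 (42.5%) private regions, where they had peaks in 15.3% and 22.5% of all regions and in 59.0% and 76.7% of shared regions. NTC DNMT1i had peaks in 10 private regions (1.84%, against 11.9% of all regions and 9.97% of shared ones). WT DNMT1i had a peak in 1 (0.184%, against 8.68% of all regions and 2.79% of shared ones). UHRF1KO DNMT1i had peaks in 27 (4.96%, against 9.39% of all regions and 26.6% of shared ones). Intervals treat regions as independent counts and cover counting error only.

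**Figure D1:**
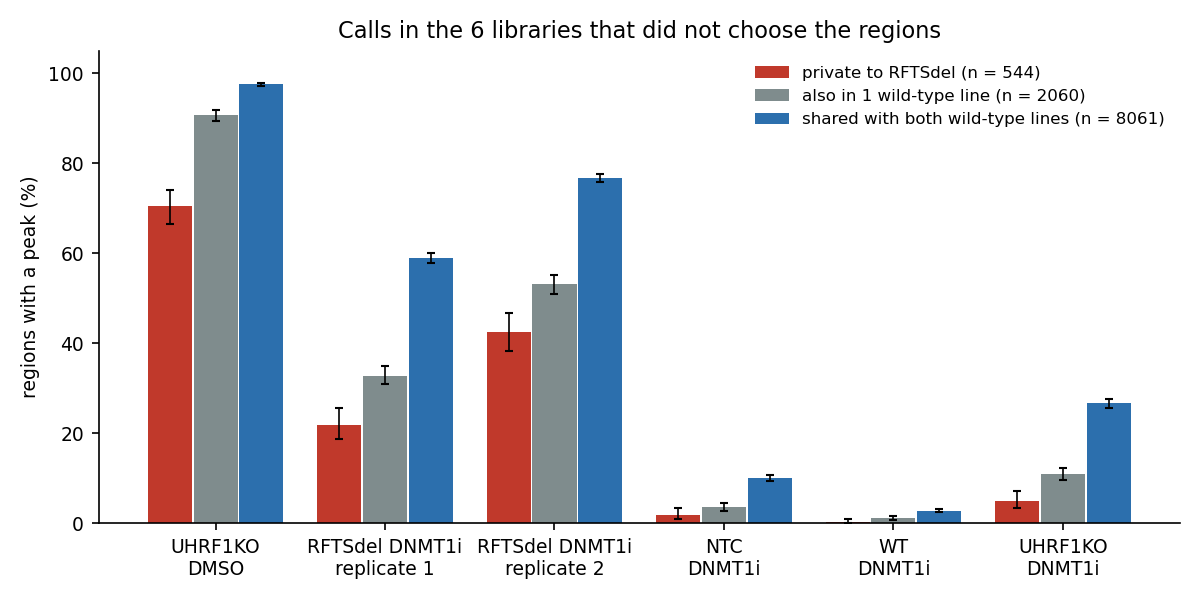
Share of regions with a peak (y axis, %) in each of the 6 libraries that did not choose the regions (x axis), for private regions, regions also called in 1 full-length line and shared regions. Bars start at 0 and error bars are 95% Wilson intervals; private regions are lowest in every library, at 70.4% in UHRF1KO DMSO and 0.184% in WT DNMT1i.

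After the inhibitor, private regions were called mainly in the RFTSdel line. The mean share was 32.2% ± 14.6 (SD, n = 2) in RFTSdel and 1.01% ± 1.17 (SD, n = 2) over NTC and WT, a difference of 31.2 percentage points. An exact two-sided permutation test of 2 libraries against 2 gave p = 0.333, the smallest p this design allows. The regions had been chosen for DMSO peaks in RFTSdel and none in NTC or WT, which favours this direction in the same lines, so the p supports nothing here. Within the shared batch label, RFTSdel against WT, the difference was 32.0 points. Without RFTSdel replicate 2 it was 10.3 points, over the regions that rule then chose. The same difference was not particular to private regions: it was 61.5 points in shared regions, 40.7 in those called in 1 full-length line and 8.61 over all regions.

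Private regions divided by what happened to their calls. Both RFTSdel DNMT1i libraries had a peak in 103 (18.9%, against 13% of all regions and 56.5% of shared ones), and 100 of these had none in NTC or WT DNMT1i (18.4%, against 9.94% of all regions). With replicate 2 left out of the rule and the count, 11.8% were called. With lists of equal length 47.9% of the regions then chosen were called, and at a −log10 q of at least 4 it was 8.93%. The share over all regions was not computed for these settings. Neither RFTSdel DNMT1i library had a peak in 297 (54.6%, against 75.2% of all regions and 20.8% of shared ones). A peak in the 2 RFTSdel DMSO libraries and nowhere else was found at 82 regions (15.1%; 0.168% of all regions, and by its definition at private ones alone). The largest single pattern was a peak in the RFTSdel DMSO libraries and UHRF1KO DMSO with no further call, at 207 regions (38.1%). A UHRF1KO DMSO peak without any DNMT1i peak was found in 46.1% of all regions and 17.7% of shared ones. At the other end, 39 regions (7.17%; 0.0800% of all regions, again private by definition) were called in all 4 RFTSdel libraries and in none of the 6 full-length ones.

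Peaks in all 4 RFTSdel libraries were the rule among the strongest private regions. All 15 of the best ranked, a rank set by RFTSdel DMSO strength, were called in all 4 RFTSdel libraries. Of the 15, 10 were called in no library of full-length enzyme either, as were 39 of all 544 (7.17%). RFTSdel DNMT1i calls were not particular to strong private regions. Replicates 1 and 2 called 81.9 and 94.3% of shared regions with a lower −log10 q of 6 or more. Only 3 of the 15 lay within 1 kb of a protein-coding gene end. The rest sat inside long genes, at pseudogenes or long non-coding RNA genes, or between genes.

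The best ranked region (chr6:39029078-39030491) lay at an end of DNAH8, a dynein heavy chain gene of motile cilia. Its −log10 q was 58.1 and 37.5 under DMSO and 44.8 and 48.1 after DNMT1i in replicates 1 and 2, with no peak in any full-length library. The second (chr8:6957801-6960211), at the alpha-defensin pseudogene DEFA9P, had 30.4 and 44.9 under DMSO and 43.0 and 56.4 after DNMT1i. It lies in a gene family of near-identical copies, so reads there may be placed among them with uncertainty. At both regions the DMSO and DNMT1i values overlapped.

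SEZ6L, which encodes a membrane protein of neurons, held the third (chr22:26366749-26368100) with 22.5 and 37.1 under DMSO and 29.7 and 33.4 after DNMT1i. COL5A1, a collagen chain gene, held the fourth (chr9:134698486-134699217) with 17.1 and 17.4, then 14.8 and 21.4. The fifth, at the long non-coding RNA gene LOC105377918 (chr6:104525663-104526113), had 15.3 and 17.8 under DMSO and 7.83 and 4.87 after DNMT1i. Of these 5 it is the one whose DNMT1i values both lay below its DMSO values.

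The pseudogene ST13P19 (chr1:210265003-210265504) had 10.6 and 11.6, then 3.29 and 4.24. LIMCH1, an actomyosin regulator gene (chr4:41692832-41693305), had 9.81 and 11.0, then 11.0 and 13.8. A region 33719 bp from BOD1 and one inside the phosphatase gene PPM1H had no full-length call either.

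In the other 5 of the 15, UHRF1KO DMSO had the full-length call. Its −log10 q was 1.35 at LOC102503427 (RFTSdel DMSO 10.9 and 15.6), 2.39 at TMEM266 (9.98 and 10.0) and 2.99 at KALRN (8.61 and 13.6), a guanine nucleotide exchange factor gene. It was 4.10 at PHETA2/SMDT1 (8.55 and 14.7) and 5.03 at CA11/SEC1P (8.46 and 11.5). The last 2 are the gene-end regions of this set beside DNAH8, and SMDT1 is the one with a promoter window. In all 5 the UHRF1KO value was below both RFTSdel DMSO values. The ranking by RFTSdel DMSO strength favours this order. The UHRF1KO DMSO list was also weaker, with a median of 2.14 against 4.36 and 4.31 in RFTSdel DMSO.

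**Figure D2:**
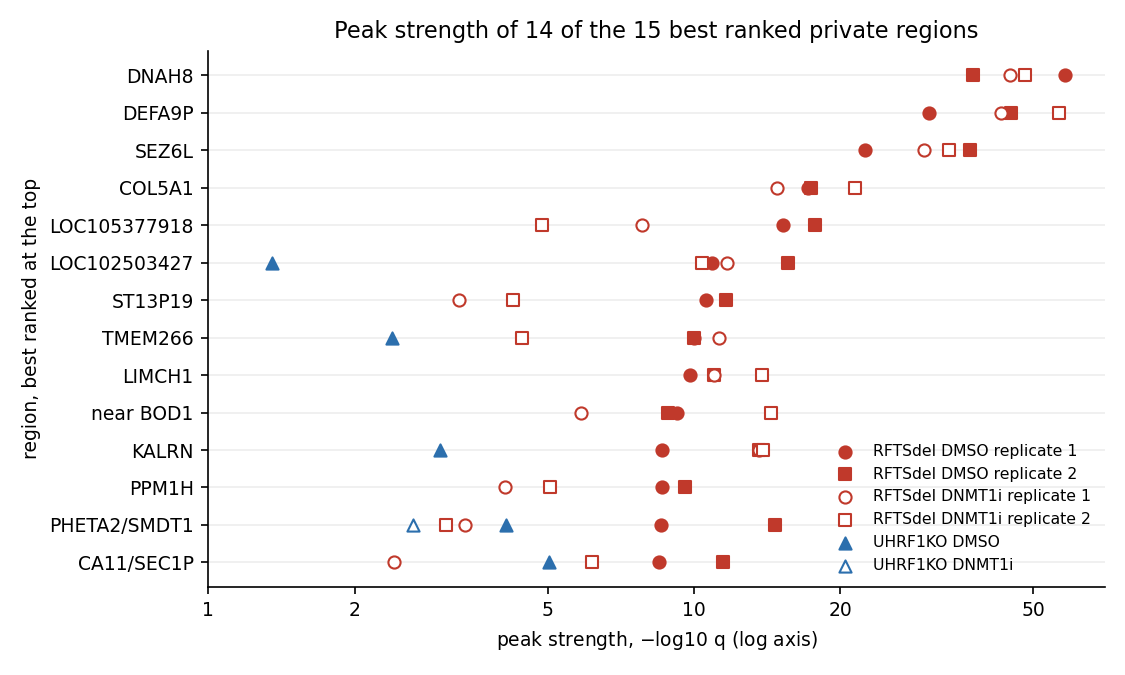
Peak strength (x axis, −log10 q, log axis) of 14 of the 15 best ranked private regions (y axis, named by the genes they overlap or lie near). Red marks RFTSdel (filled DMSO, open DNMT1i; circle replicate 1, square replicate 2) and blue marks UHRF1KO; a missing mark means no peak, and NTC and WT have none. DNAH8 reaches 58.1, and UHRF1KO marks appear at 5 regions.

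Strong private regions lay mostly away from gene ends. Of the 35 with a lower −log10 q of 6 or more, 9 were within 1 kb of a protein-coding gene end (25.7%). Inside a protein-coding gene, over 1 kb from its ends, lay 13 (37.1%), and 7 lay outside every gene (20.0%). The rest overlapped only genes of other kinds. RFTSdel DNMT1i called 28 of these 35 in replicate 1 and all 35 in replicate 2, and UHRF1KO DMSO called 15 (42.9%). Shared regions of the same strength were at gene ends in 79.4% and called in UHRF1KO DMSO in 99.4%. The 5 strength ranges were set after values were seen, and the RFTSdel DMSO values that define them also chose the regions.

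At lower strength the order of private and shared regions at gene ends was not the same in each range. From −log10 q 1 to 2, 57.0% of 179 private regions were at gene ends against 50.5% of shared ones, and from 2 to 3 it was 66.3% of 175 against 61.5%. From 3 to 4 the order was the other way, 66.7% of 93 against 72.4%, and from 4 to 6 it was 58.1% of 62 against 76.7%. UHRF1KO DMSO calls stayed lower in private regions in each range: 68.2, 76.6, 74.2 and 69.4% against 92.3, 94.5, 97.5 and 98.5%. RFTSdel DNMT1i replicate 2 called 29.1, 32.6, 46.2 and 71.0% of private regions against 35.9, 52.5, 68.7 and 82.3% of shared ones. In the strongest range that library called all 35 private regions and 94.3% of shared ones, and replicate 1 called 80.0% of private and 81.9% of shared ones. The Wilson intervals for replicate 2 overlapped from 1 to 2, from 4 to 6 and in the strongest range.

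By position, 325 of the 544 private regions (59.7%, interval 55.6 to 63.8) were within 1 kb of the start or end of some protein-coding gene, against 72.7% of shared regions and 28.0% of all regions. Regions called in both full-length DMSO lines and in no RFTSdel DMSO library were there in 29.4%. Regions chosen without RFTSdel replicate 1 or without replicate 2 were there in 32.8 and 36.2%. Gene starts were taken from promoter windows, which 15812 of 19974 protein-coding genes have, none of them on chromosome 8. Of the 536 private regions off chromosome 8, 288 covered such a start (53.7%, against 66.2% of shared regions). Starts of genes without a window are missed, so both shares may be too low. Outside every gene lay 71 private regions (13.1%, against 6.62% of shared and 23.3% of all regions). Inside a protein-coding gene, over 1 kb from its ends, lay 102 (18.8%, against 15.4% of shared regions).

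The 383 private regions with a UHRF1KO DMSO peak were at gene ends in 65.5%, and the 161 without one in 46.0%. Gene starts were counted only where a promoter window was given. Starts of both strands, as at a divergent promoter, lay within 1 kb of 36 private regions (6.72%, against 7.81% of shared regions). One such promoter joins TDP2, a DNA repair phosphodiesterase gene, to ACOT13. The FOXM1/RHNO1 region (chr12:2876615-2877472) had ends of the cell-cycle transcription factor gene FOXM1 and its neighbour RHNO1. It had 6.82 and 6.08 under DMSO and 3.24 and 4.32 after DNMT1i, with no full-length call.

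The X chromosome held more private regions than its share of binding. Of 213 X regions called in both RFTSdel DMSO libraries, 44 were private (20.7%), against 500 of 10452 on the autosomes (4.78%). Regions called in only 1 full-length line were also more frequent on X, with 74 of the 213 against 1986 of the 10452. X held 8.09% of private regions, 3.59% of those called in 1 full-length line and 1.18% of shared ones. The autosome nearest to X was chromosome 6 at 8.69%, and the lowest were chromosome 8 at 1.85% (8 of 432) and chromosome 19 at 2.10%. At matched strength X stayed higher in the 4 lower ranges: 42.5, 25.8, 11.6 and 9.80% against 12.9, 8.44, 5.30 and 2.33%. In the strongest range it was 0 of 13 against 1.09%. The X counts were small, 5 of 43 from 3 to 4 and 5 of 51 from 4 to 6. The Wilson intervals of X and autosomes overlapped from 3 to 4 and in the strongest range. The lists themselves differed on X, with 2.01 and 2.13% of peaks there in RFTSdel DMSO, 1.32% in NTC DMSO, 1.05% in WT DMSO and 1.51% in UHRF1KO DMSO. After DNMT1i the order was not kept, with 1.16 and 1.44% in RFTSdel and 1.39% in both NTC and WT.

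Of the 44 X regions, 35 were at gene ends (79.5%, against 72.7% of shared regions on all chromosomes). A UHRF1KO DMSO peak was found in 32 of the 44 (72.7%), against 92 of 95 shared X regions and 65.9% of all regions. RFTSdel DNMT1i called 8 and 9 of the 44 (18.2 and 20.5%), and shared X regions were called in 44.2 and 65.3%. The best ranked X region, at NAA10/RENBP (chrX:153934289-153936260), had 5.82 and 5.94 under DMSO, 2.77 in UHRF1KO DMSO, and 1.43 and 2.31 in RFTSdel DNMT1i. NAA10 encodes the catalytic subunit of an N-terminal acetyltransferase. KDM5C, a histone demethylase gene (chrX:53225003-53225611), had 5.06 and 4.12 under DMSO and no UHRF1KO peak. Genes of the same set include the Mediator subunits MED12 and MED14, the apoptosis inhibitor XIAP, the ubiquitin ligase RLIM and the dyskerin gene DKC1. The MED14 region covered the start of CXorf38 and had an end of MED14, not the MED14 start, within 1 kb.

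A private region lay within 1 kb of an end of 409 of 19974 protein-coding genes (2.05%), and a shared region at 6921 (34.7%). Both were found at 30 genes. A merged region is either private or shared, so a gene can have both only through separate regions, which keeps this count low. Among the 13743 genes with any region at an end the private share was 2.98%. The share in each of 21 gene lists is read against that 2.05%, as a description.

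Genes used in S phase and in DNA repair were above it. Of 69 replication-dependent histone genes 9 had a private region (13.0%), over 5 regions because neighbours share them. The H2AC4/H3C2 region (chr6:26031737-26033353) had 4.46 and 5.54 in RFTSdel DMSO, 1.75 in UHRF1KO DMSO and 1.29 in RFTSdel DNMT1i replicate 2. H3C10, H2AC8 and H2BC8 were the next genes by rank. Histone genes of the same family are similar in sequence, so some reads may be placed with uncertainty, which was not tested. Chromosome 6, where 8 of the 9 lie, had the highest private share of the autosomes.

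Of 54 DNA replication genes 6 had one (11.1%): CDC45, MCM6, TICRR, RPA2, MCM5 and POLA2. CDC45, a subunit of the replicative helicase, had 6.70 and 4.90 under DMSO, 2.44 in UHRF1KO DMSO and 1.35 in RFTSdel DNMT1i replicate 2. MCM6, of the same helicase, had 2.13 and 2.35. Of 64 DNA repair genes 7 had one (10.9%), led by ATR, the kinase that senses replication stress. The region (chr3:142447355-142448386) covered the start of its neighbour XRN1, which is not in the list. Within 1 kb it had an end of ATR but not the ATR start. It had 9.10 and 6.27 under DMSO, 3.17 in UHRF1KO DMSO, 2.73 and 1.71 in RFTSdel DNMT1i and 1.79 in UHRF1KO DNMT1i. PMS2, a mismatch repair gene, had 3.55 and 4.61, the glycosylase gene NEIL3 3.31 and 4.39, and the checkpoint kinase gene CHEK2 2.32 and 2.77. NEIL3 had no peak in any further library.

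Transcription machinery was above the overall share too, with 7 of 76 Mediator and RNA polymerase II genes (9.21%). MED8 (chr1:43389562-43390300) had 6.28 and 5.22 under DMSO, 2.89 in UHRF1KO DMSO and 4.18 and 3.66 in RFTSdel DNMT1i, and MED12, POLR2M and POLR2F followed by rank. Of 39 HOX genes 4 had one (10.3%), but these were 2 regions: HOXC4, HOXC5 and HOXC6 share one, with 2.44 and 4.96, and HOXC10 had 2.60 and 1.75. Transfer RNA synthetase genes had 3 of 34 (8.82%: SARS1, SARS2 and MARS2), and splicing factor genes 4 of 80 (5.00%: U2AF1, PRPF8, PRPF39 and PRPF38A).

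Genes of DNA methylation and SUMO had 3 of 49 (6.12%). MBD1, which binds methylated CpG, had 4.60 and 4.19 under DMSO and 1.67 in UHRF1KO DMSO, and the SUMO protease gene SENP2 had 3.83 and 1.52. The MBD1 region covered the start of CFAP53 and had an end of MBD1, not the MBD1 start, within 1 kb. DNMT1 and UHRF1 themselves had no private region, and each had 1 shared region. In the list of viral sensing and interferon genes, 1 of 50 had one: the interferon receptor gene IFNAR2, with 5.30 and 5.34 in RFTSdel DMSO, 2.40 in UHRF1KO DMSO and 2.46 and 3.10 in RFTSdel DNMT1i.

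Further lists held 1 to 3 genes each, apart from zinc finger genes with 11 of 552 (1.99%). Housekeeping genes had 1 of 20 (5.00%: B2M), mitochondrial ribosomal protein genes 3 of 77 (3.90%), and ubiquitin enzyme genes 3 of 98 (3.06%). Oxidative phosphorylation genes had 2 of 77 (2.60%) and ribosomal protein genes 2 of 86 (2.33%). Proteasome (48 genes), translation initiation (55), myeloid and leukaemia (44), lymphoid and erythroid (32), germline (88) and olfactory receptor genes (390) had none. Of the 44 myeloid and leukaemia genes, 21 had a shared region. At 2.05% a list of 50 genes would hold about 1, so a count of 0 in such a list is close to the overall share.

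Promoter windows overlapped by private regions had less GC than those under shared regions. The 404 private windows (295 regions) had a median GC content of 62.3% (quartiles 57.7 to 67.0) and a median of 24 CpG, against 69.0% (63.3 to 74.3) and 30 CpG in 7238 shared windows. Over all 22132 windows the medians were 62.3% and 21. Weak shared regions were closer: from −log10 q 1 to 2 the medians were 60.7% private and 62.8% shared, and from 4 to 6 they were 62.5 and 68.7%. Of the 409 genes with a private region at an end, 354 (86.6%) have a window.

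The NRF1 letters CGCATGCG were in 38 of 404 private windows (9.41%, interval 6.93 to 12.6). They were in 3.69% of shared windows and 2.50% of all windows. The shares were 9.77 against 2.78% from −log10 q 1 to 2, 6.85 against 2.93% from 2 to 3, 14.1 against 4.19% from 3 to 4, and 2.94 against 4.49% from 4 to 6, where the private count was 1 of 34. Private windows of regions with and without a UHRF1KO DMSO peak held them in 9.06 and 10.7%. CCAAT, the motif of NFY, was in 194 private windows (48.0%, 43.2 to 52.9), 31.8% of shared and 34.6% of all windows. It was more frequent in private windows in the 3 lower strength ranges (48.9, 53.4 and 45.9% against 32.5, 37.6 and 35.8%) and alike from 4 to 6 (32.4 and 33.0%).

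GGGCGG went the other way, in 69.8% of private and 80.4% of shared windows (56.3% of all). CCGGAAGT was in 10.9, 8.29 and 5.35% of private, shared and all windows, and TATAAA in 6.19, 3.84 and 9.46%. AAGATGGCG was in 4.46, 3.83 and 2.42%, TGACGTCA in 3.71, 3.01 and 2.26%, and CACGTG in 10.1, 10.7 and 8.34%. CTCGCGAG was in 1.98, 2.47 and 1.38%, and ACTACAATT in 1 private window (0.248, 0.566 and 0.380%). For each motif of this paragraph other than GGGCGG the Wilson intervals of private and shared windows overlapped. Several windows can belong to 1 gene and several genes to 1 region; with 1 window per region CGCATGCG was in 8.81% of private and 3.72% of shared regions. A match describes letters in these windows and no binding of the factor was measured.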

How the data were processed

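Chromatin of MV4-11 cells was precipitated with an antibody against GFP after crosslinking with disuccinimidyl glutarate and formaldehyde. Each of 11 deposited files lists broad peaks called separately in 1 library, and the 2 inputs were not used here. The submitters' processing notes name cutadapt, BWA, Picard, MACS2, deepTools and GRCh38, with no roles or settings. The fold enrichment and the −log10 q of each peak are the authors' deposited values; the lowest −log10 q lay just above 1. No file gives read counts, so depth is unknown.

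Regions were rebuilt with Python 3.11.15, numpy 2.4.6, pandas 2.3.3 and scipy 1.17.1, figures were drawn with matplotlib 3.10.9, and the merging was tested on simulated peaks. Peak strength in a region is the highest −log10 q of that library's peaks there. Genes, ends and promoter windows come from RefSeq (GRCh38.p14); 15812 of 19974 protein-coding genes have a window, none on chromosome 8. Shares carry 95% Wilson intervals and no test, since regions are not replicates; the 1 test, over libraries, is an exact permutation test. The series' design text numbers the 2 batches opposite to the sample labels, and the labels were followed.

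The regions, gene lists, motifs and tests were chosen with earlier results of these data known. Named regions are the 15 best ranked, the 10 best ranked called in all RFTSdel and no full-length library, the 5 longest, the 5 best ranked outside genes, 3 on either side of the rule, and up to 4 genes per list. Regions at FOXM1, TDP2, CCT6A, CDKN2B, ALG8 and on X were named after their values were seen, as were the list members beyond 4. A few regions and genes that these rules name are not reported here. Alternatives were the threshold, list length, merging, overlap, comparator, window and each replicate left out.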

Additional observations from a re-analysis of the deposited data

How the results depend on the processing

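No paired analysis was possible because only the RFTSdel groups have a replicate number beyond 1. Without RFTSdel replicate 1 or 2 the number of regions was 1158 to 1677, the share called in both RFTSdel DNMT1i libraries 11.8 to 18.9%, in UHRF1KO DMSO 47.8 to 56.0% and at gene ends 32.8 to 36.2%. The number of 544 became 1695 at −log10 q of at least 2, 3471 at 4 and 2214 at fold of at least 4. It became 839 with lists of equal length, and 2099 or 1049 with absence asked of WT or NTC alone. Added after the data were seen, absence in all 6 full-length libraries left 153 and a lower −log10 q of 6 left 35. Calls in both RFTSdel DNMT1i libraries (18.9%) became 8.93% at −log10 q 4, 47.9% with equal lists, 26.4% (WT alone), 22.9% (NTC alone), 25.5% (no full-length call) and 80.0% (lower −log10 q of 6). Calls in UHRF1KO DMSO (70.4%) became 63.1% at −log10 q 2, 31.5% at 4, 49.1% at fold 4, 31.7% with equal lists, 87.2% (WT alone), 76.7% (NTC alone) and 42.9% (lower −log10 q of 6). The share at gene ends (59.7%) became 70.3, 76.1, 73.1, 76.0 and 67.2% at −log10 q 2 and 4, fold 4, equal lists and WT alone, 64.5% within 3 kb, 46.4% (no full-length call) and 25.7% (lower −log10 q of 6). Matching shares over all regions were not computed where the threshold or the list length changed, and the causes were not tested. The other alternatives, on parental peaks, merging, overlap, distance and autosomes, left the number within 1.5 times and the shares within their Wilson intervals. The inhibitor difference kept its direction in all 14 alternatives (10.3 to 60.1 points), a direction that the choice of regions favours. Unknown depth limits every absence: a region without a peak is one not called.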

Other observations

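The 5 longest private regions were not the strongest, apart from the one at DEFA9P (2411 bp). They lay at MSRB1/RPL3L (2776 bp), LAMP5-AS1 (2740 bp), DEPDC1 (2547 bp) and inside CORO2B (2423 bp), and ranked 486, 415, 147 and 533 of 544 by strength. MSRB1 encodes a methionine sulfoxide reductase and CORO2B an actin-binding coronin. The region at MSRB1/RPL3L had −log10 q of 2.73 and 1.49 in RFTSdel DMSO and 2.18 in UHRF1KO DMSO.

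Between genes, the best ranked private regions after the one near BOD1 included those lying 4564 bp from C11orf68, 5599 bp from SYNE1, which encodes a large nuclear envelope protein, and 1171 bp from HOOK2, which encodes a microtubule adaptor. Long non-coding RNA genes overlapped 115 private regions (21.1%), against 24.6% of shared ones, and transfer RNA genes overlapped 2.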
